A study of Mus musculus with 6 samples.

Results

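The genes that set and mark the midbrain, *Otx1*, *Otx2*, *En1*, *En2*, *Pax3*, *Pax5*, *Pax7*, *Pax8*, *Gbx2* and *Dmbx1*, were followed in dorsal midbrain of *Ezh2* conditional knock-out (cko) embryos and their controls. They were chosen by name, as every probe set that the platform's annotation assigns to a single one of these symbols, which gave 10 genes and 15 probe sets out of 18193 genes and 45037 probe sets. Each gene was measured by at least 1 probe set: *Pax3* by 3, *Pax5*, *Pax7* and *Pax8* by 2 each and the others by 1. No member rose or fell in the *Ezh2* cko at an adjusted p under 0.05, which 0.189% of all probe sets reached, and the differences closest to the test were higher values of *En1*, *Pax8* and single probe sets of *Pax7* and *Pax3*, and a lower value of *Pax5*.

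RNA came from dorsal midbrain of embryos at E10.5, with 3 control and 3 *Ezh2* cko samples on 1 Affymetrix array each. The methods call the platform A430 and state 2 litters per group. The *Ezh2* cko embryos were Wnt1-Cre+/Ezh2[SET]lox/lox: Cre driven by the *Wnt1* promoter removes the SET domain, the part of Ezh2 that methylates histone H3 at lysine 27. By the methods the controls were Wnt1-Cre-/Ezh2[SET]lox/lox or Wnt1-Cre+/Ezh2[SET]wt/lox littermates, so that every control carried at least 1 floxed allele, whereas the labels call them WT and give the strain of all samples as C57BL/6. Neither source says which control sample had which genotype or which sample came from which litter, and the p-values measure the spread between these samples. Wnt1-Cre is also active in the neural crest, and the most rostral part of the dorsal midbrain is recombined incompletely by the study's account. Replicates 1, 2 and 3 are given in this order throughout, and neither source says that equal numbers in the 2 groups mark paired samples.

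Regional identity in the early neural tube rests on transcription factors with sharp borders. Otx2 in the forebrain and midbrain and Gbx2 in the anterior hindbrain repress each other, and where they meet the isthmic organizer forms, which secretes Fgf8 and borders a ring of Wnt1. The engrailed proteins En1 and En2 and the paired-domain proteins Pax2, Pax5 and Pax8 are made on both sides of this junction, Pax3 and Pax7 mark the dorsal neural tube and the future tectum, and Dmbx1 is a homeodomain protein of diencephalon and midbrain.

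The array values are log2 signals after RMA, which makes the distributions of the arrays alike (medians 5.69 to 5.73), so a difference of 1 is a doubling. Control replicate 1 stood slightly apart. Its lower and upper quartiles were 4.33 and 8.13, against 4.25 to 4.26 and 8.20 to 8.23 on the other arrays. It was the highest array for 25.2% of all probe sets. A probe set is compared with itself across arrays and never with another, and no signal level marks a transcript as absent. Over all probe sets, limma called 83 higher (0.184%) and 2 lower (0.00444%) in the *Ezh2* cko at that adjusted p. Their sum of 85 became 21 (without control replicate 2) to 46 (without *Ezh2* cko replicate 2) when 1 array was left out. The single *Ezh2* probe set averaged 11.70 ± 0.05 on the control arrays and 11.75 ± 0.04 on the mutant arrays (SD, n = 3 each), with an adjusted p = 0.918 from limma. It has not been placed inside or outside the deleted part, so it does not check the deletion.

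Promoter sequence was looked up for the members from the RefSeq table on build GRCm38.p6, as the 250 bases before each annotated start. The table gave 10 windows for 7 of the 10 genes, with none for *Otx1*, *En2* and *Pax3*. Short motifs were searched on both strands, and no match of 1 overlaps a match of another: TAATTA, the core bound by many homeodomain proteins, which 4.84% of all 32851 windows hold; TAATCC (or GGATTA), the core bound by Otx proteins, in 6.25%; CACGTG, an E-box, in 6.02%; and CTTTGAT (or ATCAAAG), the Tcf/Lef core, in 3.21%. The E-box was added to the search after the windows had been read. Shown 5′ to 3′ with motif letters in capitals are the windows of *En1*, *Gbx2* and *Pax8*, the members with the largest differences between the groups, and the *Otx2* window with the most motif letters, at chr1:120602237-120602486 (plus strand), chr1:89931177-89931426 (minus strand), chr2:24475600-24475849 (minus strand) and chr14:48665110-48665359 (minus strand).
En1: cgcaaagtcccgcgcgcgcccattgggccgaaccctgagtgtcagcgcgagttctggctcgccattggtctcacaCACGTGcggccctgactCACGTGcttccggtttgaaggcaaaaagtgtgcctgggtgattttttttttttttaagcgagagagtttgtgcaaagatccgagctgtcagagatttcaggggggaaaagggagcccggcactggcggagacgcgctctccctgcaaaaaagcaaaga
Gbx2: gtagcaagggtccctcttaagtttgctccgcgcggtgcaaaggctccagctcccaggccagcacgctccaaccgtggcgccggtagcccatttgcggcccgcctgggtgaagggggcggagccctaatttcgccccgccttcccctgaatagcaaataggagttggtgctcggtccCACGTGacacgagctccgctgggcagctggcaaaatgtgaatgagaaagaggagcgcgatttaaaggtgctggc
Pax8: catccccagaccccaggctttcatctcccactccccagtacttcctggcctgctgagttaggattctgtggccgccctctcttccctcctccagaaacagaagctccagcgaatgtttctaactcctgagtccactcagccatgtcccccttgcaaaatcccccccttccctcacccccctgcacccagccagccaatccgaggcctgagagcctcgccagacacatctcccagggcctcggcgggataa
Otx2: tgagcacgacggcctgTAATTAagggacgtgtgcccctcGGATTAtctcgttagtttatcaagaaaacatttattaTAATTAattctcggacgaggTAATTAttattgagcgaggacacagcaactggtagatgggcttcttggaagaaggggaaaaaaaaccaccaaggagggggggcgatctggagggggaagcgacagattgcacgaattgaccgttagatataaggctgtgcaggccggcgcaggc
The *En1* window holds CACGTG 2 times and the *Gbx2* window 1 time, while the *Pax8* window holds none of the 4 motifs. In this *Otx2* window TAATTA occurs 3 times and GGATTA 1 time. CACGTG was found in 2 of the 10 member windows, TAATTA in 2 (both of *Otx2*), TAATCC in 1 and CTTTGAT in 0. G and C made up 56.0% of the *En1* window, 61.6% of that of *Gbx2*, 60.4% of that of *Pax8* and 48.4% of that of *Otx2*, against a median of 52.4% over all windows. A match is a run of letters and does not show binding.

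The pair that draws the posterior border of the midbrain was examined first. *Otx2*, which gives the midbrain its identity against the hindbrain, had signals of 11.16, 11.19 and 11.40 in the control arrays and of 11.33, 11.43 and 11.27 in the *Ezh2* cko arrays. The groups overlapped: 1 mutant array was just above the highest control, and the others lay within the control range. The difference was 0.09 (standard error 0.09, 95% interval -0.12 to 0.30, adjusted p = 0.877 from limma), an interval of 0.92- to 1.23-fold. Its relative *Otx1*, needed with *Otx2* for brain regionalisation, gave 8.01, 8.47 and 8.16 in controls and 8.17, 8.12 and 8.24 in the *Ezh2* cko. All 3 mutant arrays fell within the range of the controls, and the difference was -0.04 (95% interval -0.31 to 0.23, adjusted p = 0.969 from limma). Without control replicate 2, the highest array, it was 0.09.

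*Gbx2*, the hindbrain partner of this pair, had control signals of 7.01, 6.71 and 6.50 and *Ezh2* cko signals of 7.64, 6.88 and 6.95. One mutant array stood well above the rest, and the other two lay below the highest control. The mean was 1.33-fold higher in the *Ezh2* cko (log2 difference 0.42, standard error 0.21, 95% interval -0.06 to 0.89, adjusted p = 0.715 from limma). Left without *Ezh2* cko replicate 1, the difference was 0.17, and with any other single array left out it was 0.30 to 0.55. The spread of *Gbx2* within the groups exceeded that of 98.4% of all probe sets.

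The engrailed genes, which pattern the tectum and cerebellum and are strongest near the isthmus, were both higher on every mutant array than on every control array. For *En1* the control arrays read 8.29, 8.18 and 7.98 and the *Ezh2* cko arrays 8.77, 8.41 and 8.38. The lowest mutant array was above the highest control array by less than the range within either group. *En1* was 1.29-fold higher on average (95% interval 1.06 to 1.58), with a log2 difference of 0.37 (standard error 0.13), an unadjusted p = 0.0182 and an adjusted p = 0.520 from limma. Leaving out *Ezh2* cko replicate 1 gave 0.24, and leaving out any other array gave 0.28 to 0.44. *En2* read 12.41, 12.29 and 12.32 in controls and 12.63, 12.49 and 12.42 in the *Ezh2* cko. The groups were separated by a narrow gap, between control replicate 1 and *Ezh2* cko replicate 3. The difference of *En2* was 0.17 (95% interval -0.02 to 0.36, adjusted p = 0.712 from limma), and 0.11 to 0.22 with 1 array left out.

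**Figure D1:**
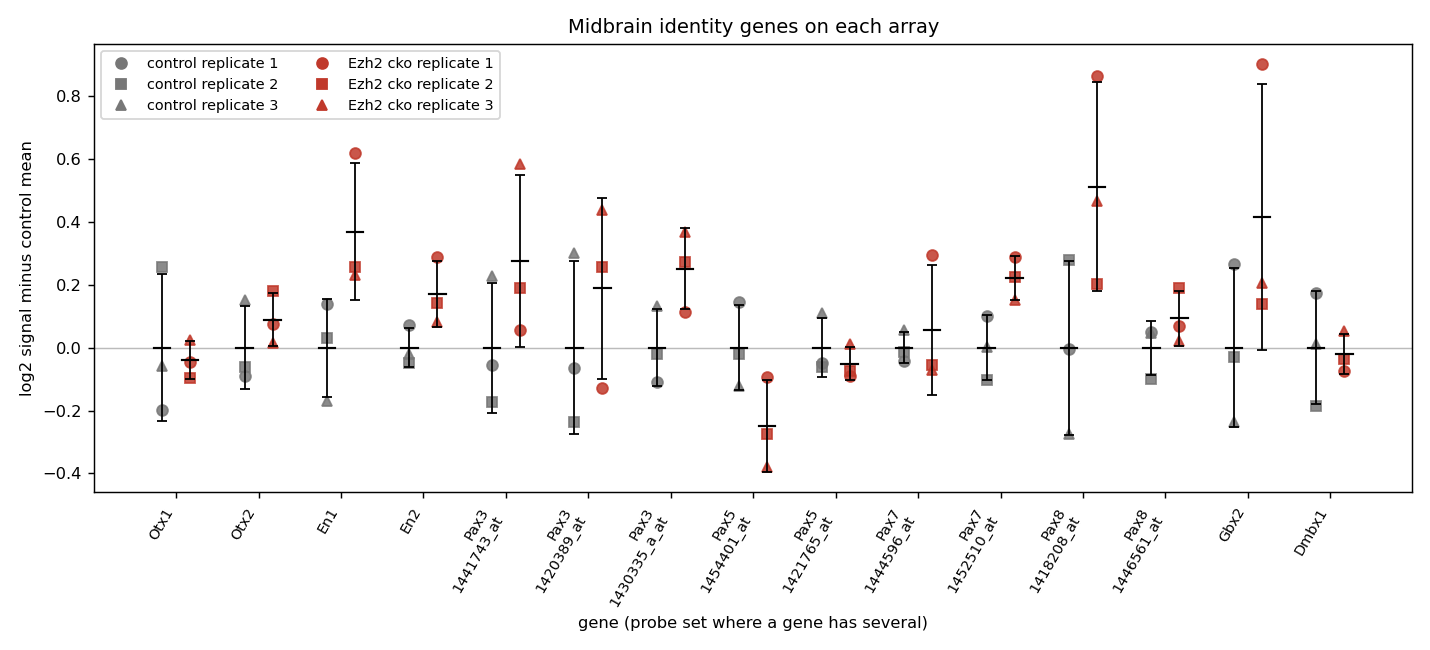
Log2 signal of each of the 15 probe sets minus the mean of its 3 control arrays (vertical axis), with control arrays in grey and *Ezh2* cko arrays in red, replicate 1 as a circle, 2 as a square and 3 as a triangle, and bars for the mean ± SD of the 3 arrays of a group. *En1*, *En2* and the *Pax7* probe set 1452510_at have no overlap between the groups, and *Ezh2* cko replicate 1 is the highest array for 6 of the 15.

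Pax2, Pax5 and Pax8 act together at the midbrain and hindbrain junction. Neither *Pax8* nor *Pax5* passed the test. *Pax2*, sought with the lists of other genes, had no probe set assigned to it alone and so was not measured here. *Pax8*, which also acts in kidney and thyroid development, gave 7.16, 7.44 and 6.89 in controls and 8.03, 7.37 and 7.63 in the *Ezh2* cko for its brighter probe set, 1418208_at. One mutant array was below the highest control array, so the groups overlapped. The mean was 1.43-fold higher in the *Ezh2* cko (95% interval 1.06 to 1.91), the largest difference among the 15 probe sets, with a log2 difference of 0.51 (standard error 0.18), an unadjusted p = 0.0230 and an adjusted p = 0.557 from limma. It was 0.34 without *Ezh2* cko replicate 1 and 0.67 without *Ezh2* cko replicate 2, the lowest mutant array. The second *Pax8* probe set, 1446561_at, read 3.50 to 3.65 in controls and 3.62 to 3.79 in the *Ezh2* cko, below the median signal of all probe sets, with a difference of 0.09 (adjusted p = 0.852 from limma).

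*Pax5*, which follows *Pax2* at the junction and also serves B cell development, had lower average values in the *Ezh2* cko, as did *Otx1* and *Dmbx1* by less. Its brighter probe set, 1454401_at, read 6.72, 6.55 and 6.45 in controls and 6.48, 6.30 and 6.19 in the *Ezh2* cko. The highest mutant array lay just above the lowest control array, and the groups overlapped by that pair alone. The mean was 1.19-fold lower in the *Ezh2* cko (log2 difference -0.25, standard error 0.10, 95% interval -0.49 to -0.01), with an unadjusted p = 0.0424 and an adjusted p = 0.642 from limma. The other probe set, 1421765_at, was below the median signal of all probe sets on average and differed by -0.05 (95% interval -0.24 to 0.13, adjusted p = 0.930 from limma).

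*Pax3* and *Pax7* encode paired and homeodomain proteins of the dorsal neural tube, in which both mark the tectum and both act in neural crest formation. The 3 probe sets of *Pax3* were higher on average in the *Ezh2* cko, with groups that overlapped in each. The brightest, 1441743_at, gave 9.93, 9.81 and 10.21 in controls and 10.04, 10.18 and 10.57 in the *Ezh2* cko, a difference of 0.28 (standard error 0.15, 95% interval -0.07 to 0.62, adjusted p = 0.749 from limma). Within each group replicate 3 was the highest, and 2 of the 3 mutant arrays lay inside the control range. The difference was 0.12 without *Ezh2* cko replicate 3 and up to 0.39 without another array. Probe set 1430335_a_at gave 7.56, 7.65 and 7.81 in controls and 7.79, 7.95 and 8.04 in the *Ezh2* cko. This was the narrowest overlap of the 3, with 1 mutant array just below the highest control, and the difference of 0.25 (95% interval 0.03 to 0.48) had an unadjusted p = 0.0320 and an adjusted p = 0.603 from limma. At 1420389_at the means were 9.24 ± 0.27 in controls and 9.43 ± 0.29 in the *Ezh2* cko (SD, n = 3 each), with a difference of 0.19 (adjusted p = 0.855 from limma), which was 0.065 without *Ezh2* cko replicate 3 and 0.35 without *Ezh2* cko replicate 1.

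The 2 probe sets of *Pax7* disagreed on whether the groups overlap. For the brighter one, 1444596_at, the arrays read 9.81, 9.84 and 9.91 in controls and 10.15, 9.80 and 9.78 in the *Ezh2* cko. The mutant group held both the highest array and the lowest, and the difference was 0.06 (95% interval -0.19 to 0.31, adjusted p = 0.943 from limma), or -0.06 without *Ezh2* cko replicate 1. The other, 1452510_at, read 7.86, 7.65 and 7.76 in controls and 8.05, 7.98 and 7.91 in the *Ezh2* cko. Here each mutant array exceeded each control array, and the difference was 0.22 (standard error 0.08, 95% interval 0.03 to 0.41) with an unadjusted p = 0.0288 and an adjusted p = 0.587 from limma.

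*Dmbx1* read 5.07, 4.71 and 4.91 in controls and 4.82, 4.86 and 4.95 in the *Ezh2* cko, on average below the median signal of all probe sets. The mutant arrays lay within the control range, and the difference was -0.02 (95% interval -0.25 to 0.21, adjusted p = 0.982 from limma).

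**Figure D2:**
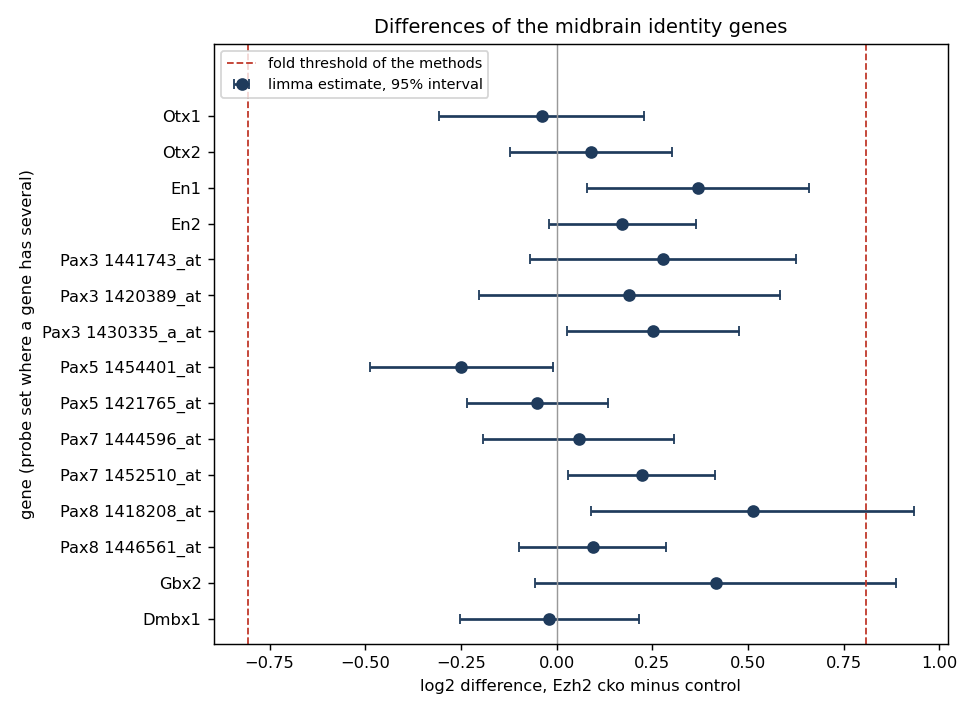
Log2 difference, *Ezh2* cko minus control (horizontal axis), of the 15 probe sets from limma with 3 arrays a group, bars being 95% intervals and dashed red lines the fold threshold of the methods, 1.75-fold either way. The intervals of 13 probe sets lie inside these lines, and those of *Pax8* 1418208_at and *Gbx2* reach past the upper one.

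Counted together, 0 of the 15 probe sets met the adjusted p. The methods' own threshold, 1.75-fold or more at an unadjusted p no higher than 0.01, was met by 0 of the 15 and by 0.26% of all probe sets. At an unadjusted p under 0.05 in limma, 4 were higher (*En1*, *Pax8* 1418208_at, *Pax3* 1430335_a_at and *Pax7* 1452510_at), against 4.49% of all probe sets, and 1 was lower (*Pax5* 1454401_at), against 3.06%. With the methods' t-test 1 of the 15 had an unadjusted p under 0.05. The 5 of limma became 2 without control replicate 2 and 3 without any other single array. For these fits and the methods' t-test the share of all probe sets was not counted. Every mutant array was above every control array in 3 probe sets (*En1*, *En2* and *Pax7* 1452510_at), against 5.72% of all, and in 0 was it below, against 7.27%. The difference was positive in 11 of 15, against 43.1% of all probe sets.

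With 1 probe set per gene, the one with the highest mean, 7 of the 10 genes had a positive difference and the median was 0.13. Over all 18193 genes, 43.0% had a positive difference and the median was -0.02. For 13 of the 15 probe sets the 95% interval lay inside 1.75-fold either way, which *Pax8* (up to 1.91-fold) and *Gbx2* (up to 1.85-fold) exceeded. In dissected tissue, fewer cells of a type and less RNA per cell cannot be told apart, so a difference of any of these genes may be of either kind.

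The high values of the members gathered on 1 array. *Ezh2* cko replicate 1 was the highest array for 6 of the 15 probe sets, those of *En1*, *En2*, *Gbx2*, *Pax8* 1418208_at and both of *Pax7*, whereas this array was the highest for 13.9% of all probe sets. *Ezh2* cko replicates 2 and 3 were highest for 2 and 3, and the controls for 2, 1 and 1. The lowest array was most often control replicate 2, for 6 of the 15.

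Other genes of the midbrain and isthmus were taken from a list of 27, of which 26 were measured. At the adjusted p 0 of the 26 rose and 0 fell, and at an unadjusted p under 0.05 in limma 10 were higher and 1 was lower, which is 38.5% and 3.85%, against 6.12% and 2.75% of all genes. In 7 of the 26 each mutant array was above each control array and in 3 below, against 5.72% and 7.27% of all probe sets. The partners are 1 probe set per gene, and the share over all genes was not counted here, so the 2 bases differ. The median difference was 0.19, or 0.11 without *Ezh2* cko replicate 3, when 10 were higher and 4 lower. *Ezh2* cko replicate 1 was the highest array for 11 of the 26 and *Ezh2* cko replicate 3 for 9. Of the 11 with an unadjusted p under 0.05, 6 were left with the methods' t-test.

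*Wnt1*, the signal of the posterior midbrain border whose promoter drives this Cre, read 7.65, 7.64 and 7.22 in controls and 8.63, 8.27 and 8.31 in the *Ezh2* cko. The groups were well apart, and the mean was 1.87-fold higher (95% interval 1.49 to 2.35, adjusted p = 0.0712 from limma). With a trended and robust variance prior the adjusted p was 0.0393, and over the other alternatives it ranged up to 0.578. All *Ezh2* cko embryos carried Wnt1-Cre, whereas how many controls did is not known. What part the Cre transgene itself has in the *Wnt1* difference was not tested. *Lmx1b*, a LIM homeodomain gene that maintains the isthmus, gave 7.08, 7.05 and 6.84 in controls and 7.84, 7.43 and 7.43 in the *Ezh2* cko at its brighter probe set. Here too the groups did not overlap, with a difference of 0.57 (adjusted p = 0.214 from limma), while the dim second probe set differed by -0.01. *Cnpy1*, a gene of the isthmus linked to FGF signalling, had differences of 0.51, 0.63 and 0.50 at its 3 probe sets (adjusted p = 0.460, 0.352 and 0.427 from limma). On all 3 of them *Ezh2* cko replicate 1 was the highest array. *Tal2*, needed for neurons of the dorsal midbrain, went the other way, from 10.43, 10.45 and 10.13 in controls to 9.81, 9.74 and 8.82 in the *Ezh2* cko. *Ezh2* cko replicate 3 was the lowest by far, and the difference was -0.88 (adjusted p = 0.355 from limma), with -0.84 at the second probe set. Without that array the differences were -0.56 and -0.35.

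**Figure D3:**
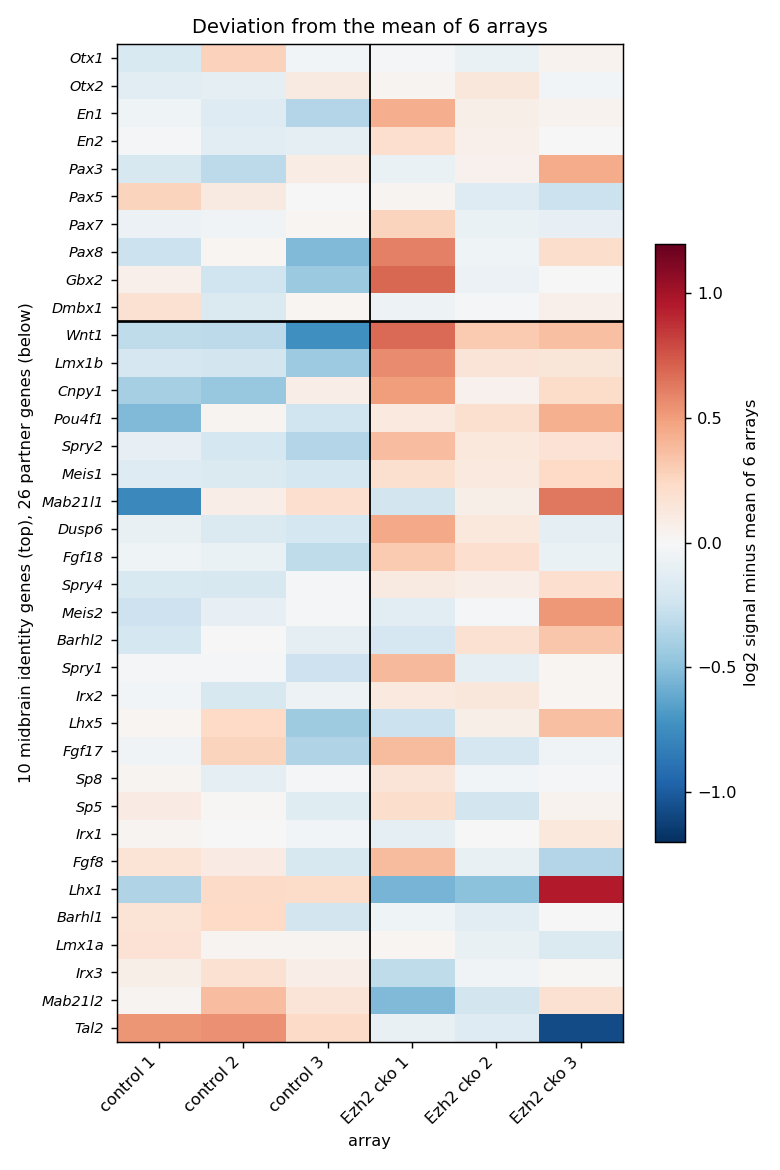
Log2 signal of each array minus the mean of the 6 arrays (colour, red above and blue below) for the 10 members, 1 probe set per gene, in the upper block and the 26 partner genes, sorted by their difference, in the lower block. The first *Ezh2* cko column is the reddest for *En1*, *Pax8* and *Gbx2* and also for *Wnt1*, *Lmx1b* and *Cnpy1*.

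Genes on either side of the midbrain and guidance genes linked to some members were counted in the same way. Of 13 guidance genes of the tectum linked to engrailed and Pax7, mainly ephrins and their receptors, 0 rose or fell at the adjusted p. At an unadjusted p under 0.05 in limma 4 were higher and 1 lower, which is 30.8% and 7.69%, against 6.12% and 2.75% of all genes. *Cntn2*, 1 of the 4, is also on the list of neuron markers counted below. The median of the 13 was 0.18, or 0.11 without control replicate 1, and without *Ezh2* cko replicate 2 or 3 the 4 became 2. The one with the smallest p was *Epha3*, an ephrin receptor gene, which went from 6.17, 6.50 and 6.65 in controls to 7.44, 7.29 and 8.05 in the *Ezh2* cko (difference 1.15, adjusted p = 0.0934 from limma). Its other probe sets, all below the median signal of all probe sets, differed by 0.71, 0.39 and 0.0039 (adjusted p = 0.422, 0.445 and 0.997 from limma). Of 15 forebrain genes, 0 rose or fell, 1 was higher at the unadjusted p, and the median was -0.0034. Over all 29 probe sets of these genes 0 rose or fell and 3 were higher at the unadjusted p, with a largest difference of 1.13 and a lowest adjusted p of 0.163 from limma. Of 9 hindbrain genes 1 rose, *Fgf3*, a ligand made in the hindbrain, from 6.39, 6.37 and 6.39 in controls to 7.54, 7.92 and 7.79 in the *Ezh2* cko (2.59-fold, adjusted p = 0.00441 from limma), and the median of the 9 was 0.04. A second *Fgf3* probe set also rose (1.28, adjusted p = 0.00674 from limma), and the third had a difference of 0.43 (adjusted p = 0.151 from limma). With the methods' t-test 0 of the 9 rose.

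Among 12 roof plate and dorsal neural tube genes, which share the dorsal domain of *Pax3* and *Pax7*, 0 rose or fell at the adjusted p, whereas 8 were higher at an unadjusted p under 0.05 in limma, or 66.7% against 6.12% of all genes. Their median difference was 0.32, and the smallest p belonged to *Rspo1*, a Wnt agonist of the roof plate, with a difference of 0.54 (adjusted p = 0.130 from limma). Of 6 further Pax, Otx and Gbx family genes, 0 had an unadjusted p under 0.05 at the probe set with the highest mean, and the median was -0.01. Over all 14 probe sets of these 6 genes, 2 were higher and 1 lower at the unadjusted p. The largest difference was 1.13 and the lowest adjusted p from limma was 0.181, so the count of 0 holds for the representing probe sets alone. *Pax6* and *Gbx1* are also on the forebrain list, which had the same largest difference, so these lists are not separate observations.

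Markers of other cell types were counted in the same tissue, since *Pax3* and *Pax7* are also neural crest genes. Of 9 neural crest markers 4 were higher at an unadjusted p under 0.05 in limma, or 44.4% against 6.12% of all genes. Their median difference was 0.20, and none rose at the adjusted p. Against the mean of the 6 arrays the list's median was -0.30, -0.09 and -0.12 in controls and 0.02, 0.08 and 0.21 in the *Ezh2* cko. The median difference was 0.13 without control replicate 1 and 0.30 without control replicate 2, and 2 of the 9 were higher with the methods' t-test. The 12 mesenchyme markers had 6 higher and 1 lower (50% and 8.33%, against 6.12% and 2.75% of all genes) with a median of 0.35. Their median was 0.16 without control replicate 1 and 0.20 without *Ezh2* cko replicate 3, which left 4 higher, and 3 were higher with the methods' t-test. Markers of blood, vessels and macrophages had 1 of 14 higher (7.14%) with a median of 0.07. Of 12 progenitor markers 2 were higher and 2 lower (16.7% each), with a median difference of 0.0027. What part the crest and mesenchyme markers have in the *Pax3* and *Pax7* values was not tested.

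Of 18 neuron markers 10 were higher at an unadjusted p under 0.05 in limma, which is 55.6% against 6.12% of all genes, with a median difference of 0.36. The 10 became 1 with the methods' t-test, 2 without control replicate 1 (median 0.23), 3 without *Ezh2* cko replicate 2, 1 without *Ezh2* cko replicate 3 (median 0.24) and 15 without *Ezh2* cko replicate 1. Their median stood at -0.47, -0.05 and -0.01 in controls and at -0.08, 0.17 and 0.41 in the *Ezh2* cko, against the mean of the 6 arrays. The array lowest in neuron markers was thus control replicate 1, and the highest was *Ezh2* cko replicate 3. With the mean of these markers as a term in limma, the difference of *Gbx2* was 0.88 (adjusted p = 0.348), that of *En1* 0.63 (adjusted p = 0.343), that of *Pax8* 0.69 (adjusted p = 0.799) and that of *En2* 0.30 (adjusted p = 0.749). In the same fit *Pax3* differed by 0.02 (adjusted p = 0.999), from 0.28 without the term, and *Pax5* by -0.03 (adjusted p = 0.998), from -0.25. *Otx2* (0.04) and *Otx1* (-0.19) also had adjusted p of 0.998 and 0.974. The *Pax7* probe sets differed by 0.17 (1444596_at, from 0.06) and 0.34 (1452510_at, from 0.22), with adjusted p of 0.980 and 0.655. With this term the estimates for *En1*, *En2*, *Pax7*, *Pax8* and *Gbx2* were thus larger and those for the brightest probe sets of *Pax3* and *Pax5* nearer to 0. *Gbx2* then met the fold and p of the methods, while 0 of the 15 met the adjusted p. The neuron markers were themselves higher on average in the *Ezh2* cko, so the term overlaps with the group. With 6 arrays the parts of the 2 in these estimates cannot be told apart.

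**Figure D4:**
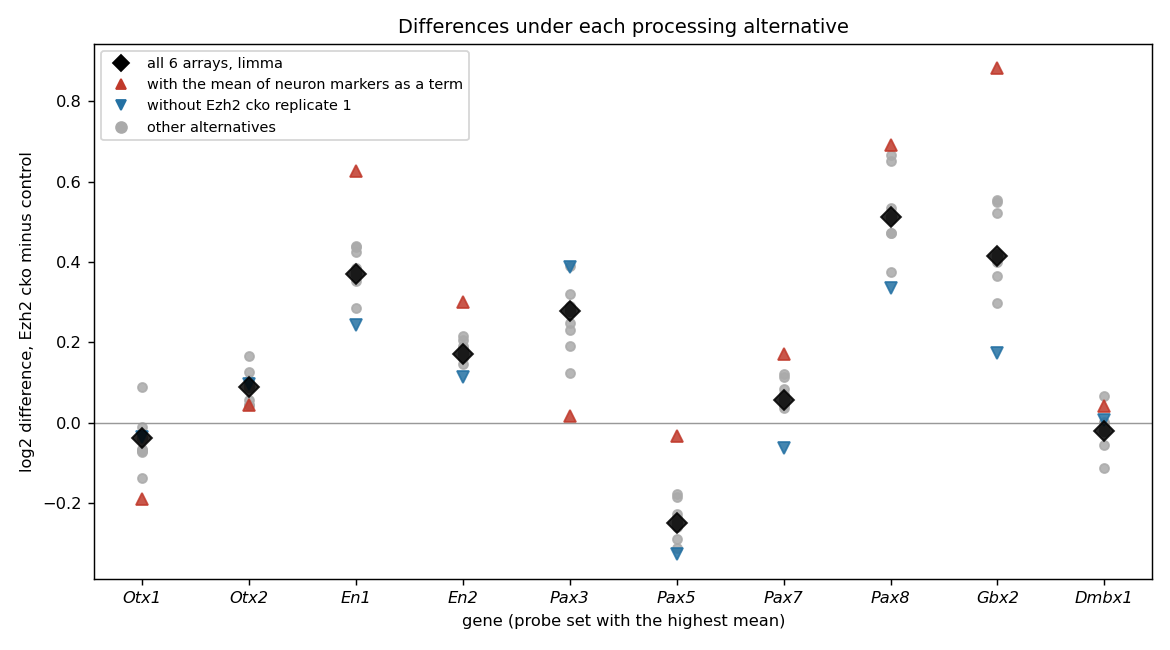
Log2 difference, *Ezh2* cko minus control (vertical axis), of the probe set with the highest mean of each member, as estimated by limma from all 6 arrays (black diamond), with the neuron marker mean as a term (red triangle), without *Ezh2* cko replicate 1 (blue triangle) and under the other alternatives (grey). *Otx2*, *En1*, *En2*, *Pax3*, *Pax8* and *Gbx2* stay above 0 in all of them and *Pax5* below, while *Otx1*, *Pax7* and *Dmbx1* have values on both sides of 0.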

How the data were processed

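RNA of dorsal midbrain at E10.5 was measured on 6 Affymetrix arrays (A430 in the methods), 3 control and 3 *Ezh2* cko, grouped by the labels. Each deposited value is the log2 signal of 1 probe set, made by the authors with RMA per the labels. RMA corrects background, normalizes the arrays to each other by quantiles and summarises the probes of a set, and its version is not given in the sources used here. Quantile normalization makes the distributions of the arrays alike, so a shift of most genes in 1 direction would not be seen. Arrays have no read depth, and their number limits the precision.

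After removal of the 64 control probe sets, lmFit and eBayes of limma 3.58.1 (R 4.3.3) were run on the remaining 45037, *Ezh2* cko minus control, with p-values adjusted by Benjamini-Hochberg over all of them. No array test is named in the methods, so their general unpaired test was run as an alternative and is called the methods' t-test. Symbols came from the platform's annotation, in which 34945 probe sets have 1 symbol, 932 several and 9160 none. A gene is represented by its probe set with the highest mean. Named are all 10 members, *Ezh2*, the 4 partner genes with the largest difference and, of each other list, at most the gene with the smallest p. Genes that stand on more than 1 list are named only to show the overlap. The lists were midbrain and isthmus partners, tectal guidance, forebrain, hindbrain, roof plate and dorsal neural tube, other Pax and Otx family genes, and markers of neural crest, mesenchyme, neurons, progenitors, and blood, vessels and macrophages. The members and lists were chosen with earlier results of these data known. Windows of 250 bases were taken from RefSeq (GRCm38.p6), without the transcribed bases. The fit was tested on simulated data. Alternatives were another test, variance prior, array weights, filter on dim probe sets, normalization, leaving out the _x_at and _s_at probe sets, a block for the replicate number, the neuron marker mean as a term, another probe set summary and leaving out each array.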

Additional observations from a re-analysis of the deposited data

How the results depend on the processing

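In all alternatives run, 0 of the 15 member probe sets passed the adjusted p, and the lowest adjusted p of any member was 0.306, for *En1* with the replicate number as a block. The 85 probe sets past the adjusted p overall became 0 with the methods' t-test and 7 with the neuron marker mean as a term, while the member probe sets past the threshold of the methods went from 0 to 1 (*Gbx2*) with this term and those at an unadjusted p under 0.05 from 5 to 1 with the methods' t-test. Leaving out each array in turn, 2 to 3 member probe sets had an unadjusted p under 0.05, a p for which all probe sets were not counted in these fits. Of all probe sets, 21 to 46 passed the adjusted p. The counts were 35, 21 and 26 without control replicates 1, 2 and 3. Without *Ezh2* cko replicates 1, 2 and 3 they were 33, 46 and 39. The causes were not tested, other than that fewer arrays entered.

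At the probe sets that represent the genes, signs turned for 3 members with small differences: *Otx1* to 0.089 without control replicate 2, *Pax7* to -0.0625 without *Ezh2* cko replicate 1, and *Dmbx1* to 0.0025 with cyclic loess, 0.0416 with the neuron marker mean, 0.0675 without control replicate 1 and 0.0072 without *Ezh2* cko replicate 1. Without 1 array their ranges were -0.14 to 0.089, -0.0625 to 0.12 and -0.11 to 0.0675. Of the other probe sets, *Pax3* 1420389_at turned to -0.10 with the neuron marker mean and *Pax5* 1421765_at to 0.0043 without control replicate 3. Neither the labels nor the methods say whether equal replicate numbers mark paired samples. Deviations from the group means correlated at 0.065, -0.203 and 0.063 for equal numbers, and not every array correlated best with its own number. Such deviations sum to 0 within a group of 3, so these correlations cannot decide whether samples were paired. As a block the replicate numbers gave 7 member probe sets at an unadjusted p under 0.05, 6 higher and 1 lower. Of all probe sets, 59 then passed the adjusted p. The share of all probe sets at the unadjusted p was not counted for the block or the other alternatives. For the partner genes the count of 11 at an unadjusted p under 0.05 became 6 with the methods' t-test and 8 to 14 without 1 array, a comparison chosen after seeing the data, as was the count of lists over all probe sets of their genes. The filter on dim probe sets left 12 of the 15 member probe sets.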
